A study of Mus musculus with 30 samples.

Results

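Free L9 is an oligonucleotide of 9 locked nucleic acid (LNA) bases made of 3 CAG units, which pairs with CUG repeats in RNA. It was given without a carrier to HSA-LR mice, and the quadriceps transcriptome of the 3 treated mice (L9 A, L9 B and L9 C) was compared with that of 8 nontreated HSA-LR mice (NT1 to NT8). The 3 mice are all those given free L9 among the 30 mice of the series, and they were chosen by their labels. Free L9 mice were injected into the tail vein with 5.3 mg/kg at an age of 8 weeks, and muscle was taken 2 weeks after the last injection. Both groups carry the transgene of line HSA-LR20b, a human skeletal actin gene with an expanded CTG repeat whose promoter is active in skeletal muscle fibres, and NT mice are labelled as given no treatment. Whether NT mice were injected with vehicle is not given in the sources used here, so an effect of the injection itself cannot be told apart from one of the oligonucleotide. Labels of the first deposited set of libraries give FVB/N as the strain, and those of the second set give no strain. L9 A, L9 B and NT1 to NT6 belong to the first set, and L9 C, NT7 and NT8 to the second. WT quadriceps and pacDNA-L9 at 5.3 mg/kg, in which the same oligonucleotide is attached to a bottlebrush polymer, are used below for reference.

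Myotonic dystrophy type 1 (DM1) is caused by a CTG repeat in the 3′ untranslated region of *DMPK*. The expanded CUG RNA folds into hairpins, is retained in nuclear foci and binds muscleblind-like (MBNL) proteins, which regulate alternative splicing, so that exons of channel and contractile genes revert to fetal patterns. An oligonucleotide with CAG units can occupy the repeat and block MBNL binding without cutting the RNA, and its all-LNA chemistry gives no substrate for RNase H. Such a molecule can in principle also pair with short CUG runs in other transcripts. Oligonucleotides without a carrier enter muscle fibres poorly, are taken up by scavenger and endocytic receptors, and may be read by nucleic acid sensors.

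One library stood apart before any comparison. L9 B held 22.3% of its counts in mitochondrially encoded genes (Wilson 95% interval 22.3 to 22.3%), whereas L9 A held 7.04% and the 6 NT mice of its set between 6.17% and 8.97%. L9 C held 12.0% (11.95 to 11.98%), although NT7 and NT8 of its set listed 0 counts there. A value of 0 over all 37 of these genes is not read as a measured share. After all libraries were reduced to the same depth, 12283 protein-coding genes were detected in L9 B, 13820 in L9 A, 14644 in L9 C and 14073 to 14855 in NT mice. Across the 12990 genes tested, log2 CPM (counts scaled to the size of the library) of L9 B correlated with the NT mice of its set at r = 0.88 to 0.907, against 0.963 to 0.983 for L9 A and 0.968 to 0.988 between those NT mice, which is a description over genes. Of 9382 genes with a mean of at least 5 CPM, 27.9% in L9 B lay 2-fold or more from the mean of the NT mice of the same set, compared with 2.30% in L9 A, 1.94% in L9 C and 0.565 to 1.60% in NT1 to NT6, each of which is part of that mean. L9 A and L9 B were female and L9 C male, and NT mice were 4 of each sex. All 7 fibre markers examined were abundant in each free L9 library. Skeletal actin *Acta1* was at 68140, 23580 and 46940 CPM in L9 A, B and C, and the fast myosin *Myh4* at 45010, 44550 and 68570 CPM. Values without L9 B are therefore set beside many of the results that it moves.

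**Figure D1:**
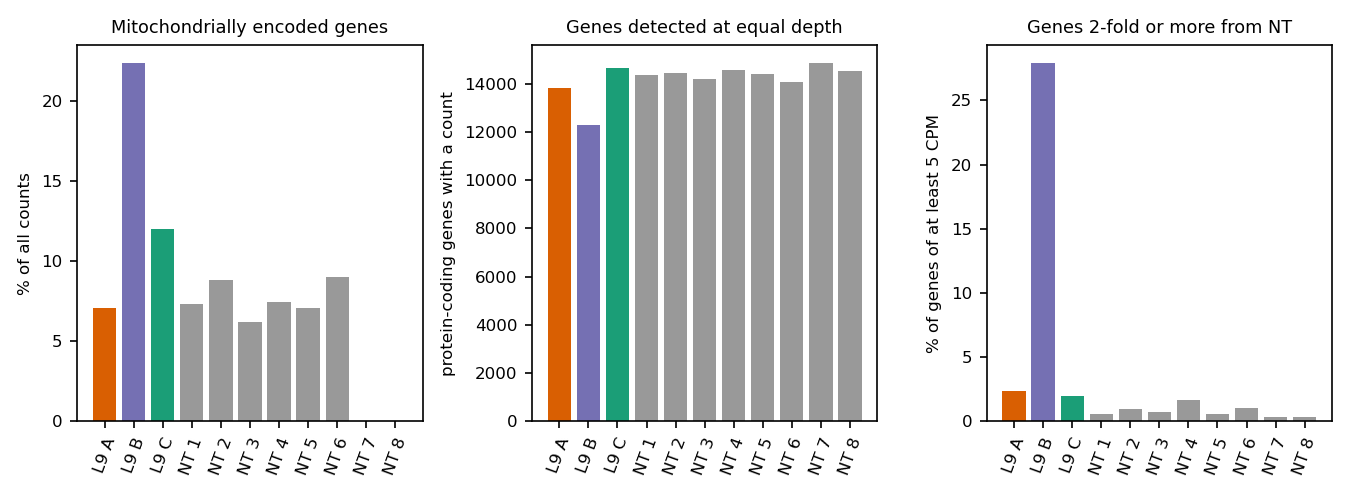
Library measures of the 3 free L9 mice (coloured) and the 8 NT mice (grey): percent of all counts in mitochondrially encoded genes, protein-coding genes detected at equal depth, and percent of genes with a mean of at least 5 CPM that lie 2-fold or more from the mean of the NT mice of the same set. L9 B is the highest bar on the left (22.3%) and right (27.9%) and the lowest in the middle (12283 genes); NT 7 and NT 8 list no mitochondrial counts.

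L9 can pair with any transcript that holds 3 CUG units in a row. In the GENCODE vM39 annotation of GRCm39, 2756 of the 12972 genes tested with an annotated mRNA had such a site, in the coding sequence for 1526, the 3′ UTR for 853 and the 5′ UTR for 377, counting the longest run over all annotated transcripts. A longest run can lie on a transcript that muscle does not use. The sites below are those of 6 genes that the study examined for unwanted binding. They are shown because by this annotation they hold from 9 units down to the 3 that L9 needs. For *Dmpk* the study lists fewer units than are counted here. Longer runs of the same list are not shown. The run is in capitals, in the DNA letters of the sense strand from 5′ to 3′, and coordinates are those of the run on GRCm39.
*Txlnb*, 5′ UTR, chr10:17672078-17672104, plus strand: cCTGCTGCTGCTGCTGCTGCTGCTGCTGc
*Mllt3*, 5′ UTR, chr4:87951538-87951561, minus strand: gagCTGCTGCTGCTGCTGCTGCTGCTGctt
*Tacc1*, 3′ UTR, chr8:25649575-25649598, minus strand: ccgCTGCTGCTGCTGCTGCTGCTGCTGcgg
*Ptbp1*, coding, chr10:79696709-79696726, plus strand: tcccgtCTGCTGCTGCTGCTGCTGcggcca
*Rpl14*, coding, chr9:120403270-120403281, plus strand: ctgcagCTGCTGCTGCTGctaaag
*Dmpk*, coding, chr7:18826423-18826431, plus strand: ctcgccCTGCTGCTGggctcc

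Genes with 3 or more CUG units had medians a little below that of the other genes, mostly through L9 B. No gene of any run length passed an adjusted p of 0.05 (edgeR quasi-likelihood test, Benjamini-Hochberg over all 12990 genes). The median log2 fold change of free L9 over NT was -0.01 for 10216 genes with fewer than 3 units, -0.07 for 2281 genes with 3 units, -0.09 for 302 genes with 4 units and -0.04 for 173 genes with 5 or more units. Without L9 B the 4 medians were -0.01, -0.02, -0.03 and -0.02. By mouse, the median shift of the genes with 3 units from the same-set NT mean was -0.05 in L9 A, -0.23 in L9 B and 0.07 in L9 C. NT mice ran from -0.02 to 0.02 there, so L9 A and L9 B were below and L9 C above them. For genes with 4 units it was -0.06 in L9 A, -0.34 in L9 B and 0.05 in L9 C, and NT mice ran from -0.04 to 0.06. For genes with 5 or more units it was -0.03, -0.13 and 0.04, with NT mice between -0.03 and 0.02. L9 B was thus the lowest of the free L9 mice in each class, and L9 C lay above 0 in the 3 classes that hold a site. The annotated mRNA was also longer in these classes, with a median of 4608.5 bases at 4 units and 3862 bases below 3 units, and the part of length in the medians was not tested. Unadjusted p was below 0.05 with a lower value in 2.62% of genes with fewer than 3 units, 2.50% at 3, 3.64% at 4 and 4.05% at 5 or more, the last being 7 genes. With a higher value the shares were 4.00%, 2.41%, 2.32% and 1.73%.

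**Figure D2:**
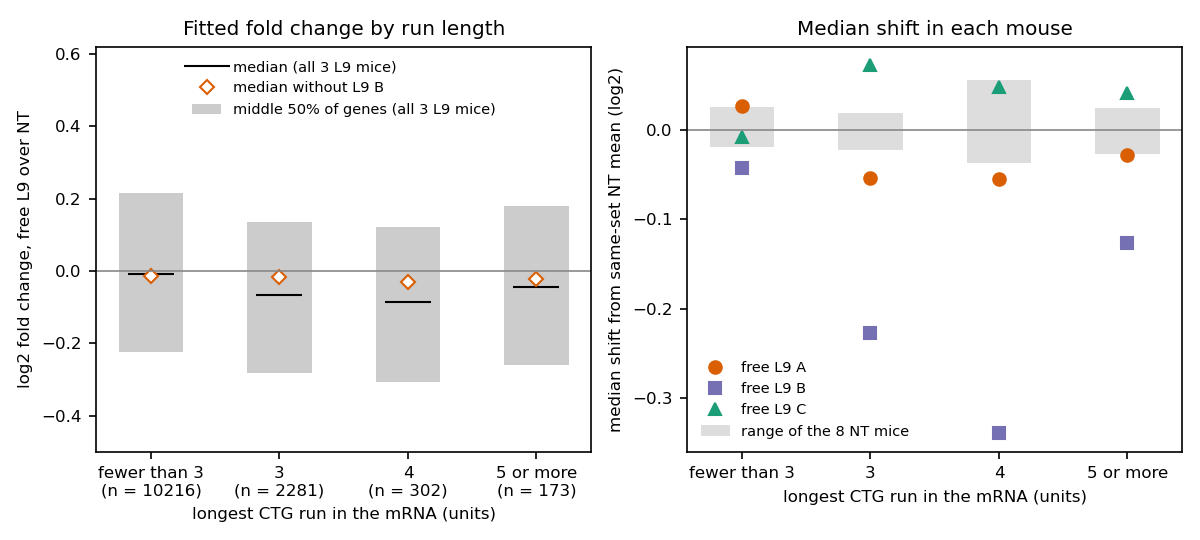
Left, fitted log2 fold change of free L9 over NT for genes grouped by the longest CTG run in their annotated mRNA (grey, middle 50% of genes; black line, median with all 3 free L9 mice; open diamond, median without L9 B). Right, median shift of each class in each free L9 mouse from the mean of the NT mice of its set (log2), with the range of the 8 NT mice in grey; L9 B falls to -0.34 at 4 units while L9 C stands at 0.05.

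The study examined 21 genes for short repeats, among which it marks *Nr3c1* and *Dap* as holding CAG rather than CTG runs. All 21 were measured, none passed the adjusted test, and 1 had an unadjusted p below 0.05. That gene was *Papss2*, which makes the sulphate donor of proteoglycan sulphation and has 2 CTG units at most, fewer than L9 matches. It was at 6.20, 22.7 and 7.99 CPM in L9 A, B and C, and NT mice ran from 4.97 through a median of 6.71 to 8.05 CPM. Only L9 B stood above the NT range, and the log2 fold change of 0.86 with all 3 mice was 0.05 without it. The median of the list was 0.04, or 0.05 without L9 B, beside -0.02 for all genes tested. The gene with the longest run in the list was *Mapkap1*, a subunit of mTOR complex 2, with 25 units in a 3′ UTR. It was at 49.9, 45.2 and 47.0 CPM against 44.7, 49.8 and 52.1 CPM as the lowest, median and highest NT mouse, a log2 fold change of -0.06 ± 0.12 (SE; 95% interval -0.32 to 0.19). *Txlnb*, a muscle protein that binds syntaxins, was at 334.9, 769 and 533 CPM, with NT mice at 378, 462 and 645 CPM. Its 3 free L9 mice lay below, above and inside the NT range. *Dmpk*, the kinase whose human gene carries the repeat in DM1, was at 746, 467 and 627 CPM against 436 to 765 CPM in NT, all inside the range. *Mllt3*, a reader of acetylated chromatin, was at 236, 408 and 179 CPM against 173 to 228 CPM, and *Rpl14*, a ribosomal protein, at 305, 158 and 206 CPM against 185 to 290 CPM. Of the 21 genes, 9 were above all NT mice and 6 below them in L9 B, compared with 2 and 4 in L9 A and 1 and 1 in L9 C. Over all genes tested the shares above and below were 28.7% and 38.3% in L9 B, 18.7% and 19.1% in L9 A and 9.45% and 11.1% in L9 C.

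Across the whole transcriptome no gene separated free L9 from NT mice in the main test. Of 12990 protein-coding genes, 0 (0%) passed an adjusted p of 0.05 in edgeR's quasi-likelihood test with the deposited set as a covariate, and the lowest adjusted p was 0.0608. At an unadjusted p below 0.05, 474 genes (3.65%) were higher and 343 (2.64%) lower with free L9, together 6.29% of the genes tested. Without L9 B it was 1561 genes (11.85% of 13172), and over leaving out each mouse in turn the count ran from 636 to 2175, the highest without L9 A. DESeq2, the tool named in the study, called 7 genes in the same libraries, 3 higher (0.0178%) and 4 lower (0.0237%) of 16868. The design limits what could be seen. The 95% interval of the log2 fold change had a median half-width of 0.57 over all genes and 0.48 over genes of at least 5 CPM, and for 80.3% of the latter the whole interval lay between -1 and 1. A 2-fold difference was thus outside the interval for those genes. All 3 free L9 mice lay above all 8 NT mice for 46 genes (0.354%) and below them for 90 genes (0.693%).

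The 6 lower genes of lowest p whose mean reached 5 CPM and whose sign held in both sets and without L9 B were *Gapdhrt2*, described further on, *Noct*, *Fkbp5*, *Spock2*, *Zbtb16* and *Atpaf1*. *Fkbp5* encodes FKBP51, a co-chaperone that is induced by glucocorticoids and restrains their receptor (chromosome 17, 28618058 to 28737521, minus strand). It was at 12.6, 6.51 and 15.7 CPM in L9 A, B and C, and at 16.1, 41.5 and 89.6 CPM in the lowest, median and highest NT mouse. The groups did not overlap, though the highest free L9 mouse and the lowest NT mouse were close. The log2 fold change was -2.04 ± 0.49 (SE; 95% interval -3.10 to -0.99), with an adjusted p of 0.773 in edgeR and 0.0142 in DESeq2. *Noct*, or nocturnin, is a phosphatase of NADP(H) with a daily rhythm of expression (chromosome 3, 51128616 to 51159065, plus strand). It was at 36.3, 24.4 and 36.9 CPM against 50.3, 56.6 and 65.6 CPM in NT, again without overlap. Its log2 fold change was -0.81 ± 0.17 (adjusted p 0.773 in edgeR, 0.0303 in DESeq2). *Zbtb16*, the transcription factor PLZF and a further glucocorticoid target, was at 13.9, 22.4 and 35.03 CPM against 33.9, 58.3 and 75.5 CPM, so that L9 C met the lowest NT mouse, though it was below NT7 and NT8 of its own set at 60.7 and 45.6 CPM. The log2 fold change was -1.34 ± 0.32 (adjusted p 0.773 in edgeR, 0.0435 in DESeq2).

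The values of these genes in other groups belong beside them. WT mice had 8.92 to 40.2 CPM of *Fkbp5*, 19.6 to 76.0 CPM of *Noct* and 22.8 to 53.8 CPM of *Zbtb16*. These ranges held 2, 3 and 1 of the 3 free L9 mice. Every NT mouse, at 50.3 to 65.6 CPM, was also inside the WT range of *Noct*. NT mice overlapped the WT range of *Fkbp5* (NT 16.1 to 89.6 CPM) and of *Zbtb16* (NT 33.9 to 75.5 CPM). The 4 mice given pacDNA-L9 at 5.3 mg/kg spanned 10.1 to 107 CPM of *Fkbp5* and 40.2 to 91.6 CPM of *Noct*. Without L9 B the log2 fold changes of *Fkbp5*, *Noct* and *Zbtb16* were -1.69, -0.61 and -1.34, where the same sign was a condition for naming them. The hour of killing is not given in the sources used here, and its part was not tested.

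*Spock2*, a matrix proteoglycan of the testican family, was at 4.11, 8.75 and 7.57 CPM against 10.1, 13.2 and 19.0 CPM in NT. Each free L9 mouse was below every NT mouse, and the log2 fold change was -1.07 ± 0.26, or -1.41 without L9 B (edgeR adjusted p 0.773 with all mice). WT mice stood at 3.68 to 8.27 CPM, on the side of free L9. *Atpaf1*, an assembly factor of the mitochondrial ATP synthase, was at 26.9, 32.2 and 55.4 CPM, with NT mice from 37.3 to 81.7 CPM. Each free L9 mouse was below the NT mice of its own set, at 37.3 to 49.8 CPM in the first and 81.7 and 81.5 CPM in the second.

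Among genes with higher values, *Micos10* and *2510002D24Rik* did not overlap between groups. *Micos10*, a subunit of the complex that shapes mitochondrial cristae (chromosome 4, 138829105 to 138858424, minus strand), was at 237, 390 and 217 CPM against 134, 147 and 213 CPM in NT. Its log2 fold change was 0.81 ± 0.18, or 0.55 without L9 B (edgeR adjusted p 0.773 with all mice). *2510002D24Rik*, which has no symbol by function, was at 15.6, 18.3 and 15.8 CPM against 9.51, 11.0 and 12.6 CPM, a log2 fold change of 0.58 ± 0.14. *Zcchc17*, a zinc knuckle protein that binds RNA, was at 59.3, 56.3 and 108 CPM against 37.7, 45.0 and 65.6 CPM, and each free L9 mouse stood above the NT mice of its own set, which ran from 37.7 to 46.5 CPM in the first set and were at 59.4 and 65.6 CPM in the second. DESeq2 called it (adjusted p 0.0483), edgeR did not (0.773). *Csnk2b*, the regulatory subunit of casein kinase 2, was at 112, 142 and 62.7 CPM against 52.0 to 83.7 CPM, where L9 A and L9 B were above and L9 C inside, though above NT7 and NT8 of its own set at 60.5 and 51.98 CPM. *Zfp438*, a zinc finger gene, was at 9.06, 14.2 and 6.31 CPM against 4.29 to 7.04 CPM, and L9 C, inside that range, was above NT7 and NT8 at 4.66 and 4.29 CPM. *Gstt3*, a glutathione transferase chosen after its values were seen because DESeq2 called it (adjusted p 0.0391), was at 6.08, 7.60 and 2.74 CPM in L9 A, B and C against 1.37 to 3.49 CPM in NT. L9 A and L9 B were above the NT range and L9 C inside it, though above NT7 and NT8 at 1.37 and 1.81 CPM.

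**Figure D3:**
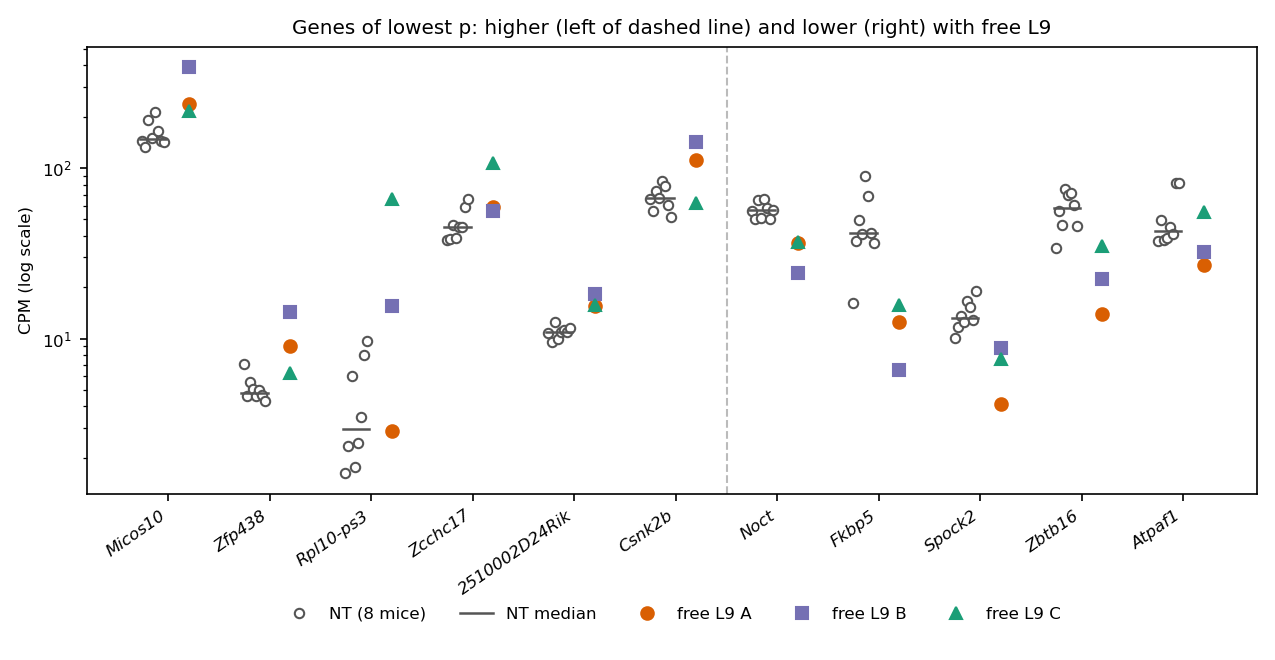
CPM (log axis) of 11 of the 12 genes of lowest p whose mean reached 5 CPM and whose sign was the same in both sets and without L9 B, in the 8 NT mice (open circles, line at the median) and in L9 A, B and C; *Gapdhrt2* is left out because most libraries list it near 0. Free L9 lies apart from NT for *Micos10*, *2510002D24Rik*, *Noct*, *Fkbp5* and *Spock2*, none of which passed the adjusted test in edgeR.

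The lowest p of all belonged to genes that resemble other genes closely. *Gapdhrt2*, a retrotransposed copy of *Gapdh*, was at 0, 0 and 1.05 CPM in L9 A, B and C and at 0 to 0.470 CPM in NT1 to NT6, but at 88.5 and 117 CPM in NT7 and NT8. Without L9 B it was called lower with free L9 together with *Ramacl* and *Gm4631*, 3 genes of 13172 (0.0228%), by edgeR's quasi-likelihood test with adjusted p of 0.00386, 7.58e-08 and 0.00386. *Ramacl* was at 0, 1.49 and 1.05 CPM in L9 A, B and C, at 0.312 to 0.586 CPM in NT1 to NT6 and at 199.9 and 190.9 CPM in NT7 and NT8. *Gm4631* was at 0.947 CPM in L9 C and at 24.9 and 27.8 CPM in NT7 and NT8. In all 3 genes L9 C was near the level of the first set although its label places it in the second, as with its mitochondrial counts. The set covariate, the product term and the shifts of L9 C from NT7 and NT8 all rest on that label. Across the genes tested, log2 CPM of L9 C correlated with NT7 and NT8 at r = 0.9723 to 0.9782 and with NT1 to NT6 at 0.9317 to 0.9445. The pacDNA-L9 5.3 mg/kg mice of the second set held 113.9 and 132.1 CPM of *Gapdhrt2* and, like NT7 and NT8, listed 0 mitochondrial counts. Whether L9 C was counted in the same way as the first set was not tested. Reads of near-identical copies or family members can be assigned to either gene, so the values of these 3 genes are uncertain and no difference in expression is read from them. *Rpl10-ps3*, at 2.86, 15.6 and 65.4 CPM against 1.62 to 9.61 CPM, and *Rpl9-ps6*, called by DESeq2 (adjusted p 0.0391), at 26.4, 73.5 and 48.0 CPM against 1.37 to 27.9 CPM, resemble ribosomal protein genes and are uncertain for the same reason.

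No member of the gene lists around these genes passed the adjusted test. Of 17 glucocorticoid targets tested, 3 had an unadjusted p below 0.05, all lower (*Fkbp5*, *Zbtb16* and *Klf15*), where 2.64% of all genes tested were lower. Of these, *Fkbp5* and *Zbtb16* were already named above for their low p in this comparison, so they add no independent evidence here. The list median was -0.18, or -0.21 without L9 B. *Klf15*, a glucocorticoid-induced factor of amino acid catabolism, was at 29.6, 26.0 and 28.1 CPM against 30.2, 38.4 and 56.0 CPM, just below the NT range in each mouse, with a log2 fold change of -0.50 ± 0.19. The abundant targets *Glul*, *Tsc22d3*, *Klf9* and *Pdk4* had log2 fold changes of 0.06, -0.21, -0.18 and -0.93, with free L9 and NT mice overlapping in each. By mouse the list shifted by -0.19 in L9 A, -0.69 in L9 B and 0.34 in L9 C, with NT mice from -0.37 to 0.36, so the list as a whole left that range only in L9 B. Of 19 clock genes 4 had an unadjusted p below 0.05, beside 6.29% of all genes tested. *Nr1d1*, the repressor REV-ERBα, was at 210, 180 and 211 CPM against 59.9 to 160 CPM, without overlap. *Cry1*, a repressor of the clock, and *Nfil3*, a factor that opposes its output genes, had log2 fold changes of -0.59 and -1.23. Immediate early genes, which respond within minutes to activity or handling, had a list median of 0.61, or 1.14 without L9 B, with -0.03 as the lowest on leaving out 1 mouse, and shifted by 0.64, -0.31 and 1.66 in L9 A, B and C, with NT mice between -1.08 and 1.10. *Fos* was at 176, 39.3 and 289 CPM and at 3.75, 25.3 and 274 CPM in the lowest, median and highest NT mouse, so only L9 C was above the NT range. Of their 18 members, *Egr3* and *Egr2* had an unadjusted p below 0.05, both higher, and none passed the adjusted test.

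The genes that most separate HSA-LR from WT quadriceps did not move together toward WT. This list of 16 genes was chosen from earlier results of these libraries, so its NT and WT values are no independent evidence. Free L9 differed from NT in the direction of WT for 7 genes and away from WT for 9, and none passed the adjusted test. *Sln*, or sarcolipin, an inhibitor of the sarcoplasmic calcium pump, was at 190.5, 66.7 and 78.2 CPM with free L9, 44.9 to 123 CPM in NT and 0.385 to 6.23 CPM in WT. *Mss51*, a muscle gene that responds to myostatin, was at 332, 384.5 and 501 CPM, within 284 to 889.5 CPM in NT, with WT at 63.4 to 278 CPM. *Myo1a*, an unconventional myosin, was at 57.8, 24.9 and 29.03 CPM against 25.7 to 68.02 CPM in NT and 0.385 to 2.38 CPM in WT. Every free L9 mouse was above every WT mouse in these 3 genes. The 2 genes with an unadjusted p below 0.05 both had a sign toward WT. *Actc1*, cardiac actin, was at 104, 54.2 and 89.9 CPM against 19.3, 34.99 and 90.0 CPM in NT and at least 225 CPM in WT. *Fbp2*, the muscle fructose bisphosphatase, was at 52.1, 28.01 and 49.4 CPM against 49.9, 73.8 and 132.9 CPM in NT and 11.0 to 24.98 CPM in WT, so that L9 B was well below and L9 C just below the NT range.

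Gene counts cannot show exon inclusion, but they give the levels of genes whose exons the study followed in DM1 muscle. For exon inclusion in this panel, the study reported a modest correction with free L9 that was not statistically significant. None of these 21 genes had an unadjusted p below 0.05, and the list median was -0.19, or -0.13 without L9 B. *Atp2a1*, the fast calcium pump SERCA1, was at 32620, 15540 and 38670 CPM against 28510 to 38570 CPM in NT. *Cacna1s*, the voltage sensor of the triad, was at 761, 727 and 1410 CPM against 826.5 to 1367 CPM, so the first 2 mice were below and the third above all NT mice. *Mbnl1*, which encodes the main splicing factor bound by the repeat in muscle, was at 263, 574 and 406 CPM against 325 to 502 CPM, and its log2 fold change of 0.04 became -0.37 without L9 B. Among 23 splicing regulators tested none had an unadjusted p below 0.05.

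No gene that senses or takes up nucleic acids passed the adjusted test. Of 19 nucleic acid sensors tested, 3 were higher and 1 lower at an unadjusted p below 0.05 (3.65% and 2.64% over all genes), and the median of 0.27 became 0.02 without L9 B. The list shifted by 0.21 in L9 A, 0.52 in L9 B and -0.05 in L9 C, so that L9 A and L9 B were above the NT range of -0.09 to 0.12. *Eif2ak2*, the kinase PKR activated by double-stranded RNA, was at 7.68, 18.5 and 7.68 CPM against 5.46 to 9.43 CPM in NT, and *Tlr3*, the endosomal receptor of double-stranded RNA, at 2.62, 8.41 and 1.37 CPM against 1.57 to 3.68 CPM. In both, L9 B alone exceeded the NT range. Of 30 interferon-stimulated genes 0 were higher and 2 lower at an unadjusted p below 0.05, with a list median of -0.16, or -0.26 without L9 B. The list shifted by -0.46, -0.19 and 0.11 in L9 A, B and C, and L9 A was below the NT range of -0.31 to 0.60, with 12 of 30 genes below all NT mice. *Ifi27*, the most abundant, was at 33.5, 15.7 and 28.1 CPM against 26.2, 28.9 and 96.0 CPM, with L9 B alone below the NT range. Of 16 cytokine and NF-κB target genes, 1 (*Ccl11*, the chemokine eotaxin) had an unadjusted p below 0.05. *Ccl11* was at 14.9, 35.7 and 13.8 CPM against 8.95 to 17.7 CPM, again with L9 B alone outside. This list shifted by 0.09, -0.55 and 0.27 in L9 A, B and C. L9 B was below and L9 C above the NT range of -0.22 to 0.22. In L9 B, 8 of 16 members were below all NT mice and 3 above, beside 38.3% and 28.7% of all genes tested. The list median of -0.05 became 0.14 without L9 B. Endocytic and scavenger receptors had a median of -0.13 over 17 genes, or -0.19 without L9 B. They shifted by -0.11, 0.38 and -0.18 in L9 A, B and C. L9 B was above and L9 C below the NT range of -0.17 to 0.17. *Cd36*, a scavenger receptor that carries fatty acids, was at 145, 462 and 264 CPM against 146 to 381 CPM, and *Cltc*, the clathrin heavy chain, at 133, 279 and 163 CPM against 140 to 228 CPM. None of 29 lysosomal genes had an unadjusted p below 0.05. Their per-mouse shifts of -0.01, -0.04 and -0.08 were inside the NT range of -0.15 to 0.19 in all 3 mice, and the membrane protein *Lamp1* was at 528, 692 and 494 CPM against 445 to 613.5 CPM.

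Markers of other cell types differed more between single mice than between groups. In bulk muscle, fewer cells of a type and less RNA per cell cannot be told apart. The 20 adipocyte markers, all with counts, summed to 1562, 5801 and 1973 CPM in L9 A, B and C and to 1479, 1992 and 8902 CPM in the lowest, median and highest NT mouse, the highest being NT4. The adipocyte list median of 0.23 became -1.2 without L9 B. The 21 macrophage markers summed to 108, 171 and 92.6 CPM, with NT mice from 96.6 to 192 CPM. Of the 19 tested, 1 was higher (*Mertk*) and 2 lower (*C1qa* and *Csf1r*) at an unadjusted p below 0.05, beside 3.65% and 2.64% of all genes. The list shifted by -0.22, 0.62 and -0.62 in L9 A, B and C. L9 B was above and L9 C below the NT range of -0.43 to 0.61. The list median of -0.13 became -0.49 without L9 B. *Lyz2* and *Csf1r*, which mark the lineage, were at 33.1, 43.3 and 22.2 CPM against 23.0 to 53.2 CPM and at 11.4, 11.6 and 17.0 CPM against 13.2 to 21.6 CPM. T, B, neutrophil and mast cell markers were near 0, with 17 genes summing to 2.86, 11.5 and 4.84 CPM and 4.47 to 6.85 CPM in NT. The 24 fibroblast and matrix genes summed to 3414, 5431 and 3442 CPM, inside the NT range of 2504 to 5597 CPM. Their median log2 fold change of 0.12 became -0.24 without L9 B. Of 16 endothelial markers, 3 had an unadjusted p below 0.05, all higher, beside 3.65% of all genes tested. The list median was 0.05, or 0.24 without L9 B. Members above and below all NT mice were 4 and 2 in L9 A, 6 and 6 in L9 B and 5 and 0 in L9 C. *Emcn*, or endomucin, was at 11.8, 18.9 and 14.6 CPM against 9.33 to 11.6 CPM, above every NT mouse, and *Pecam1* at 79.2, 111 and 86.3 CPM against 55.7 to 86.7 CPM. The endothelial sum was 911, 2366 and 1207 CPM against 728 to 1750 CPM, with *Fabp4*, which adipocytes also express, as its largest part in L9 B at 1358 CPM. Summed levels of haemoglobin and other red cell genes were 364, 140 and 1095 CPM, L9 C being above and L9 B below the NT range of 191 to 596 CPM. The part of these markers in the results above was not tested.

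Lists of fibre type and metabolism described here shifted with opposite signs in L9 A and L9 B, though not always outside the NT range. Slow fibre genes had a median log2 fold change of 0.825, or 1.13 without L9 B. They shifted by 2.24 in L9 A, -0.26 in L9 B and 0.18 in L9 C, with NT mice spread from -1.06 to 1.65. *Myh7*, the slow myosin heavy chain, was at 218.5, 1.56 and 443 CPM and in NT from 0.187 through a median of 47.0 to 617 CPM, more than the difference between groups. The 14 fast fibre genes had a median log2 fold change of -0.0046, or 0.21 without L9 B, and shifted by 0.28 in L9 A, -0.26 in L9 B and -0.02 in L9 C. L9 A was above and L9 B below the NT range of -0.16 to 0.20. Glycolytic and glycogen genes shifted by 0.10, -0.76 and 0.06 against -0.16 to 0.17 in NT. Their median log2 fold change of -0.22 became 0.03 without L9 B. *Aldoa*, the muscle aldolase, was at 30540, 8229 and 23410 CPM against 14990 to 28270 CPM, and *Pygm*, muscle glycogen phosphorylase, at 8835, 4565 and 8214 CPM against 5655 to 9174 CPM. L9 B was below every NT mouse in both. Nuclear-encoded oxidative phosphorylation subunits shifted by 0.37, -0.53 and 0.17 over 84 genes, and cytosolic ribosomal proteins by 0.38, -0.46 and 0.11 over 80 genes. In each of these 2 lists L9 B was below the NT range, and L9 A was above it for ribosomal proteins alone. Without L9 B the median log2 fold change went from 0.05 to 0.27 for oxidative phosphorylation and from 0.04 to 0.27 for ribosomal proteins. Channel genes of the fibre membrane shifted by 0.10, -0.74 and 0.32 over 25 genes, with NT mice from -0.09 to 0.13. L9 B was thus below and L9 C above the NT range, and the list median of -0.07 became 0.21 without L9 B. *Ryr1*, the calcium release channel of the sarcoplasmic reticulum, was at 4172, 2370 and 6341 CPM against 3636 to 7573 CPM. Atrophy genes held 3 of 20 members lower at an unadjusted p below 0.05, beside 2.64% of all genes tested. These were *Fbxo32*, *Foxo3* and *Klf15*, the last also counted among the glucocorticoid targets. The list median of -0.18 became 0.009 without L9 B. Its shifts were 0.04, -0.27 and -0.15 in L9 A, B and C, with NT mice from -0.22 to 0.17. *Fbxo32*, the ubiquitin ligase atrogin-1, was at 187, 224 and 199 CPM against 180, 306 and 497 CPM. No member of these lists passed the adjusted test.

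**Figure D4:**
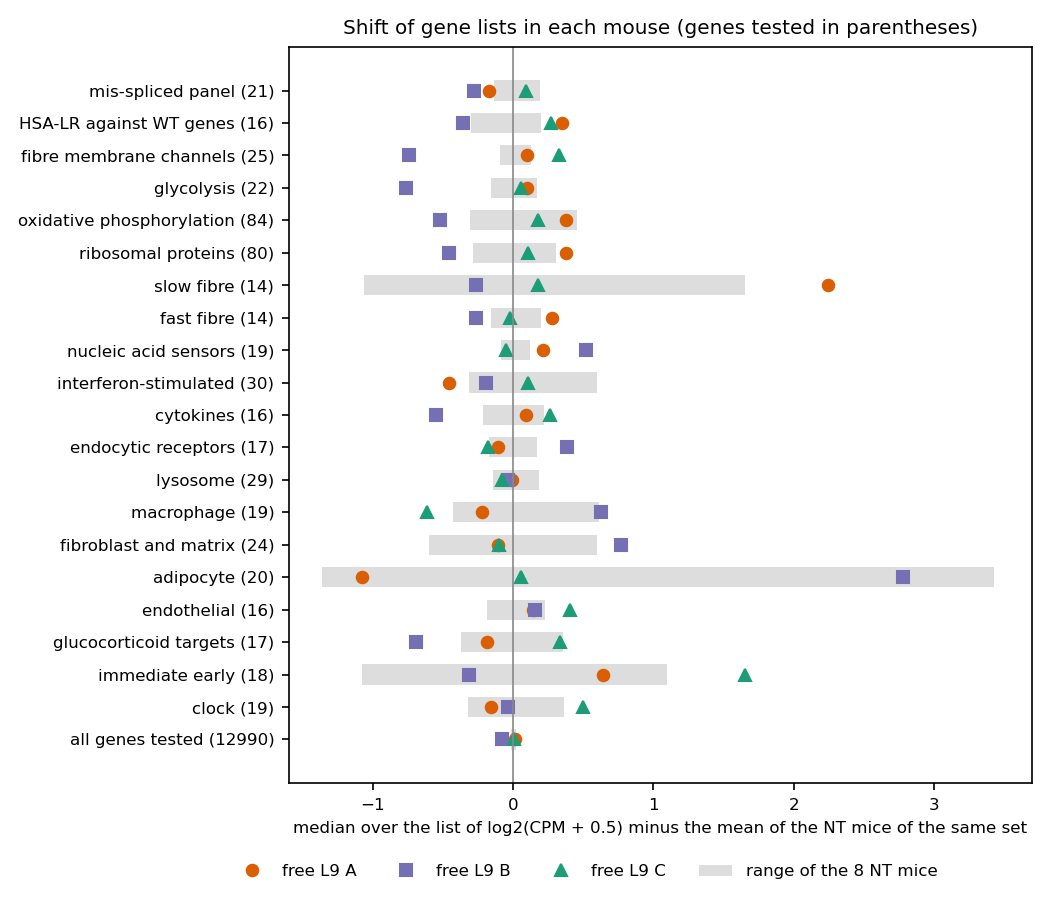
Shift of 20 gene lists and of all genes tested in L9 A, B and C, as the median over a list of log2(CPM + 0.5) minus the mean of the NT mice of the same set, with the range of the 8 NT mice in grey. L9 B lies left of the grey bars for glycolysis (-0.76) and membrane channels (-0.74), L9 A right of them for slow fibre genes (2.24) and L9 C right of them for immediate early genes (1.66).

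The 3 free L9 mice departed from NT in unlike ways. L9 A was above all 8 NT mice for 18.7% of the genes tested and below them for 19.1%, L9 B for 28.7% and 38.3%, and L9 C for 9.45% and 11.1%. In L9 B, 16 of 22 glycolytic genes, 15 of 25 channel genes, 39 of 84 oxidative phosphorylation genes and 38 of 80 ribosomal protein genes were below all NT mice. Of 24 fibroblast and matrix genes in the same mouse, 13 were above all NT mice. L9 A had 38 of 80 ribosomal protein genes and 26 of 84 oxidative phosphorylation genes above all NT mice, and 1 below in each list. In L9 C, 8 of 19 macrophage markers were below all NT mice and 5 of 16 endothelial markers above.

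Whether free L9 differed from NT to the same extent in the 2 deposited sets was tested with a product term. No gene of 12990 (0%) passed an adjusted p of 0.05 in edgeR's quasi-likelihood test, with 1094 at an unadjusted p below 0.05. The second set holds 1 free L9 mouse, so its effect rests on L9 C and on the spread pooled from the other mice. Without L9 A, when L9 B alone stood for the first set, 4489 genes passed, whereas without L9 B, when L9 A stood for it, 2 did. *Fkbp5* had log2 fold changes of -2.42 in the first and -1.29 in the second set, and *Zbtb16* of -1.73 and -0.58.

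The same oligonucleotide at the same dose on the polymer gave no gene that separated the groups past the threshold. Of 12867 genes, 0 (0%) passed an adjusted p of 0.05 between free L9 and the 4 mice given pacDNA-L9 at 5.3 mg/kg (edgeR quasi-likelihood test), with 201 at an unadjusted p below 0.05. Without L9 B, 9 genes passed, 5 higher and 4 lower with free L9, and 1033 had an unadjusted p below 0.05. *Noct* was at 24.4 to 36.9 CPM with free L9 and 40.2 to 91.6 CPM with pacDNA-L9, with an unadjusted p of 0.0582 in the same edgeR test. It was named for its low values in these free L9 mice, so its lack of overlap with pacDNA-L9 is no independent evidence. *Sln*, at 66.7 to 190.5 CPM with free L9 and 38.5 to 85.2 CPM with pacDNA-L9, overlapped.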

How the data were processed

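RNA-seq of quadriceps was deposited by the authors as raw counts per gene, 1 library a mouse, with no normalisation. The submitters' processing notes name HISAT2 2.0.5, DESeq2 and GRCm39; the counting options are not given in the sources used here. Total counts were 13605309 to 20485157 in free L9 and 17576503 to 23707138 in NT libraries. The Wilson intervals of the mitochondrial share cover counting error only. Those of log2 fold changes come from edgeR's quasi-likelihood fit and include the spread between mice. NT 7 and NT 8 list all mitochondrially encoded genes at 0.

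Of 56748 genes, 21617 protein-coding genes were kept, without the 37 mitochondrially encoded ones, so that the mitochondrial share does not enter library sizes. Free L9 was compared with NT in R 4.3.3 with edgeR 4.0.16 (TMM, filterByExpr, quasi-likelihood test, deposited set as a covariate, Benjamini-Hochberg adjustment, threshold 0.05), tested on simulated data first. DESeq2 1.42.0 was an alternative, together with other scalings, filters, samples and covariates. CPM are protein-coding counts scaled by library size and TMM over all 30 libraries. Per-mouse shifts used log2(CPM + 0.5) minus the mean of the NT mice of the same set. No source says that mice of a group share a litter or cage, and p-values measure the spread between these mice.

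The genes named were those past the threshold or, as none passed, the 6 of lowest p in each direction whose mean reached 5 CPM and whose sign was the same in both sets and without L9 B, and the most abundant members of each list described. Other genes named were chosen after their values were seen, because they passed another fit or an unadjusted p of 0.05, lay outside the NT range or hold a site shown. The comparison and the gene lists were chosen with earlier results of these data known.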

Additional observations from a re-analysis of the deposited data

Results flagged for a closer look

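Among 50 groups of NT mice examined, chance alone sets about 1 in 20 apart, and 2 held a mouse far from the others. The groups held 8 NT mice, except that the mitochondrial share was examined in the 6 NT mice of the first set. NT 1 was at 7.04 CPM of *Zfp438*, the highest NT value of that gene. NT 3 had a shift of 0.242 (log2) in the list of neuromuscular junction genes, above the other NT mice.

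Mitochondrially encoded genes were left out of the comparisons. They held 22.3% of the counts of L9 B, above the 6 NT mice of its set, and 12.0% of the counts of L9 C, whereas NT 7 and NT 8 of its set list 0.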

How the results depend on the processing

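No paired analysis was possible because free L9 mice are lettered and NT mice numbered. The count of genes past the threshold between free L9 and NT, 0 as reported, was 2 with all 30 libraries fitted together, 3 with all genes in the table, 1 with no filter on low counts, 7 with DESeq2, 3 with genes detected as a covariate, and 3 with L9 B and NT 4 left out, the last chosen after seeing the data, as was leaving out NT 7 and NT 8, which gave 0. Leaving out 1 mouse gave 0 to 3 genes. The 817 genes at unadjusted p under 0.05 with free L9 became 291 with libraries named by group and number as a covariate (L9 A, L9 B and NT 6 among those compared), 2175 without L9 A, 1561 without L9 B and 2088 without L9 C. Leaving out 1 mouse gave 0 to 4489 genes for the difference between sets, the highest without L9 A, and 0 to 9 for free L9 against pacDNA-L9, the highest without L9 B; the last comparison gave 4 with all 30 libraries. With genes detected as a covariate the log2 fold change changed sign for *Papss2* (-0.10), *Eif2ak2* (-0.11), *Tlr3* (-0.24), *Mertk* (-0.012), *Rps26* (-0.18) and *Ifi204* (-0.66). *Ifi204* ranged over leaving out 1 mouse from -0.55 to 2.08 and was at -0.55 without L9 B and at -0.53 without L9 B and NT 4. The cause was not tested. With 3 free L9 mice, of which L9 B stood apart, a difference under 2-fold was often inside the interval.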
